A study of Homo sapiens with 32 samples.

Results

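Translational efficiency (TE) is the number of ribosome footprints on an mRNA relative to the amount of that mRNA, and its change between 5 h and 10 h of serum was followed here in RPE-1 cells, an immortalised human retinal pigment epithelial line. All cells were wild type, had been kept without serum for 18 h and had then received serum for 0, 5, 10 or 15 h. Each time had 4 biological replicates of total RNA (RNA) and 4 of ribosome-protected fragments (footprints). The step from 5 h to 10 h rested on 16 of the 32 libraries, 4 per assay and time, with 5 h as the reference. A gene entered when its counts passed the filter on low counts in both assays, which held for 8736 of the 19023 genes of the table. The TE change was the footprint change minus the RNA change on the log2 scale, each relative to the other genes of its own assay, so that a shift shared by all mRNAs is not seen.

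Cells that leave quiescence on serum pass through G1 into S phase, and then through G2 into mitosis. The E2F factors switch on genes for DNA replication early on this path. Genes for the spindle, the kinetochore and cytokinesis are switched on later, many of them through a promoter element called the cell cycle genes homology region (CHR), which is bound by DREAM and related complexes. Ribosome profiling reads the position of ribosomes on mRNA, and its comparison with RNA separates a change in translation from a change in mRNA amount. A separate class, the TOP mRNAs, begins with a run of pyrimidines and encodes ribosomal proteins and elongation factors, and its translation depends on growth signals.

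RNA libraries held 595851 to 1020631 counts at 5 h and 645683 to 1107470 at 10 h, and footprint libraries 6454878 to 8093725 and 6307852 to 9604881. Levels are given as CPM, the counts of a gene scaled to a common library total. A level of 10 CPM therefore rested on about 9 reads in an RNA library of average depth. The RNA change had a larger error than the footprint change. The median standard error (SE) was 0.242 log2 units for the RNA change, 0.0899 for the footprint change and 0.238 for the TE change. The SE of the TE change came from a joint fit with 1 spread per gene for both assays. It lay below that of the RNA change alone, so the SEs and p of TE changes may be too small. The keratins KRT8 and KRT18 and the mesenchymal genes VIM and CDH2 were abundant, with mean RNA levels at 5 h of 777, 937, 5240 and 445 CPM. Other markers of both kinds were not. The epithelial KRT19, CDH1 and EPCAM had 4, 3 and 1 counts in the 16 libraries. The mesenchymal S100A4, SNAI2 and TWIST1 had mean RNA levels at 5 h of 5.7, 9.51 and 8.26 CPM. Of 15 retinal pigment epithelium markers 5 were abundant enough to be tested, DCT and TTR had no count in the 16 libraries, and RPE65 and TYR had 2 counts each. Of 8 blood cell markers, HBA1, HBB and LYZ had no count and CD68 alone was tested.

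TE changed in few genes between 5 h and 10 h, and most that changed rose. edgeR's quasi-likelihood test with Benjamini-Hochberg adjustment called 57 of 8736 genes at an adjusted p under 0.05 (0.652%). Of these 52 rose (0.595%) and 5 fell (0.0572%), and 762 genes had an unadjusted p under 0.05. Over all genes tested the median TE change was 0.0364 log2 units, and 4812 changes were above 0. The RNA and the footprints themselves moved far more widely. For RNA, 965 genes rose (11%) and 718 fell (8.18%) of 8775 tested, 19.2% in all. For footprints 3396 rose (31%) and 3366 fell (30.7%) of 10959 tested, 61.7% in all. Most RNA changes had a footprint change in the same direction: of 965 genes whose RNA rose, footprints rose in 946, and of 716 TE-tested genes whose RNA fell, footprints fell in 685. The scatter of the RNA and footprint changes shows this common diagonal with the called genes beside it.

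**Figure D1:**
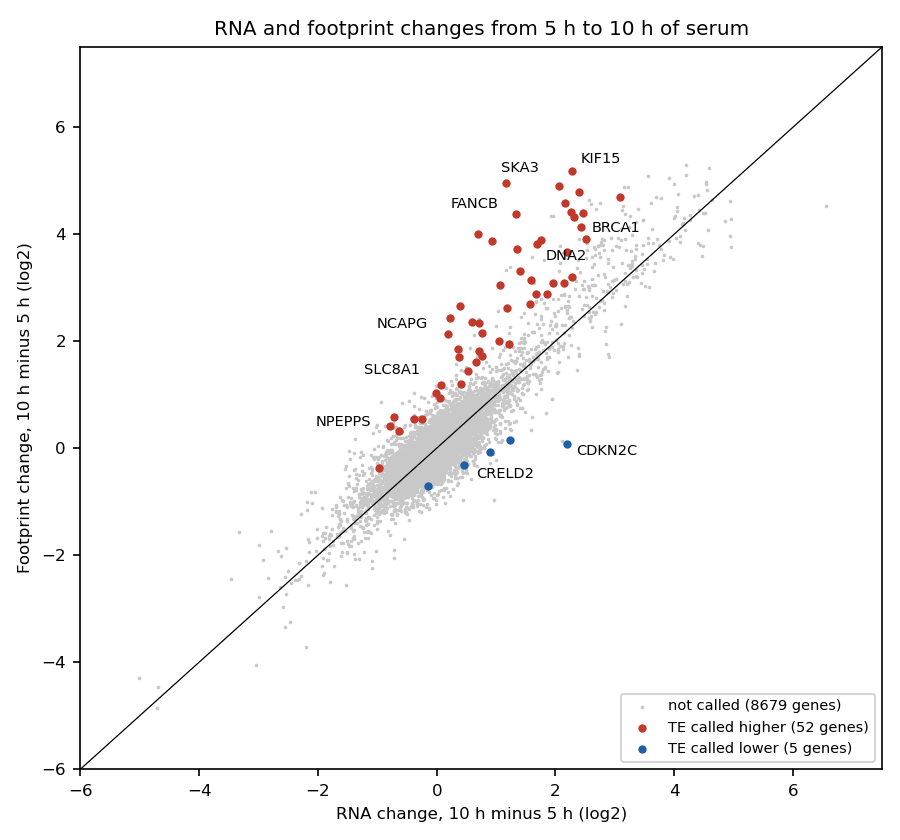
Change in RNA (x axis, log2, 10 h minus 5 h) against the change in footprints (y axis, log2) for the 8736 genes tested, with the 52 genes of raised TE in red and the 5 of lowered TE in blue; the line marks equal changes. Most red points lie above the line at raised RNA, and NPEPPS lies to the left of 0 on the x axis.

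In the 52 genes whose TE rose, the median TE change was 1.46 log2 units, from 0.609 for IGBP1 to 3.77 for SKA3. Their median footprint change was 2.78 and their median RNA change 1.12 log2 units. Footprints rose in 51 of the 52 and fell in 1, while RNA rose in 36, fell in 3 and was not called in 13. The median level over these genes went from 27.2 to 66.5 CPM in RNA and from 8.04 to 58.6 CPM in footprints. Because these genes were chosen for the TE change, these medians are a description.

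The promoters of 7 of the named rises, 6 with a CHR match and FANCB without one, are shown because many of the genes that rose share these letters. Each line is the 100 bases before the RefSeq start (GRCh38.p14), 5′ to 3′ on the strand of the gene, and capitals mark TTTGAA, the core of the CHR, or its reverse complement TTCAAA.
KIF15: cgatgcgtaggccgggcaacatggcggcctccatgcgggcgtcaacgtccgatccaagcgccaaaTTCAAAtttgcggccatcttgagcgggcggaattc
KIF4A: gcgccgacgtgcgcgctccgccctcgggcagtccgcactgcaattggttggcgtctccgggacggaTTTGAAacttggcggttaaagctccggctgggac
BUB1B: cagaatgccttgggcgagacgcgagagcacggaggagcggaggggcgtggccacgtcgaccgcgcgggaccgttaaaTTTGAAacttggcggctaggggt
CCNB2: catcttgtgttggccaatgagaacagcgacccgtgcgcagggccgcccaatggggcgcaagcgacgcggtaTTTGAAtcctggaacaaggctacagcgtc
NEIL3: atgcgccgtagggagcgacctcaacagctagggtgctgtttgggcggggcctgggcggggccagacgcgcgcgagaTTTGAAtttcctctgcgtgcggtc
NCAPG: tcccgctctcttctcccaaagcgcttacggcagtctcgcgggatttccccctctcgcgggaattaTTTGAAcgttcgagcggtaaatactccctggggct
FANCB: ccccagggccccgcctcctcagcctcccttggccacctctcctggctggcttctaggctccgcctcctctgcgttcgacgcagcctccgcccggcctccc
The stretches lie at chr3:44761694-44761793 (plus strand) for KIF15, chrX:70290004-70290103 (plus) for KIF4A and chr15:40160969-40161068 (plus) for BUB1B. Those of CCNB2, NEIL3 and NCAPG lie at chr15:59105046-59105145, chr4:177309774-177309873 and chr4:17810879-17810978, all on the plus strand, and that of FANCB at chrX:14873070-14873169 on the minus strand. The first base of the match stood 35, 34, 23, 29, 24 and 35 bases before the start in KIF15, KIF4A, BUB1B, CCNB2, NEIL3 and NCAPG.

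The letters TTTGAA, searched on both strands of the 300 bases from 250 before to 50 after the start, were in an entry of 26 of the 45 risen genes that have one (57.8%). Over all tested genes with an entry the share was 14%, or 1016 of 7262. Of the 15 named rises 14 had an entry, 11 of them with TTTGAA and 7 with it in the last 100 bases before a start. These 7 are the 6 shown above and ZGRF1, where the match began further off, 78 bases before the start. KIF14, POLQ, CIT and KIF20B had the letters only in the rest of the 300 bases. FANCB, BRCA1 and CENPI had none. Among the genes listed as G2/M genes 19 of 29 held it (65.5%), against 2 of 36 E2F targets of G1/S (5.56%). CCAAT, also searched on both strands, was in 30 of the 45 risen genes (66.7%) and in 44.2% of all tested genes. Over all genes with an entry, 2.56% of those with TTTGAA had a raised TE and 0.304% of those without it, while the median TE changes were 0.0625 and 0.037 log2 units. The match describes the gene's promoter and not its mRNA.

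Kinesins that work on the spindle and in cytokinesis held 4 of the 15 places among the largest rises with sufficient counts. KIF15 (ENSG00000163808), a kinesin of the bipolar spindle, stood in RNA at 11.9, 10.6, 6.82 and 9.38 CPM in replicates 1 to 4 at 5 h, and at 60.5, 25.6, 49.9 and 51.5 CPM at 10 h. Its footprints were at 1.58, 0.993, 1.13 and 1.27 CPM at 5 h, and at 44.2, 53.6, 44.9 and 40.2 CPM at 10 h. All 10 h libraries exceeded all 5 h libraries in both assays, and the gene's share of all footprints went from well below its share of RNA to about the same share. The ratio of group means was 4.84 for RNA and 36.8 for footprints, and the TE change was 2.87 ± 0.51 log2 units (SE, n = 4 per group and assay; edgeR adjusted p = 0.000962). Only 33 RNA reads and 36 footprints over the 4 libraries of each assay stood behind the 5 h levels.

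KIF4A (ENSG00000090889), a chromosome-bound kinesin of the anaphase midzone, was at 13.6, 9.65, 11.4 and 11.5 CPM in RNA at 5 h and at 71.8, 42.6, 56.1 and 56.9 CPM at 10 h. Its footprints were at 2.37, 2.65, 3.1 and 2.53 CPM and then at 53.1, 59.7, 53 and 47.5 CPM. The groups did not overlap in either assay, and the footprint replicates lay closer together than the RNA replicates. Its TE change was 1.99 ± 0.31 (SE; edgeR adjusted p = 0.000147). KIF14 (ENSG00000118193), a kinesin that recruits partners to the midbody, had RNA of 15.3, 13.5, 18.2 and 15.6 CPM at 5 h and of 46.2, 18, 14 and 37.9 CPM at 10 h, with footprints of 2.77, 1.82, 2.82 and 3.17 CPM and then 38, 47.1, 40.0 and 32.6 CPM. Here the RNA groups overlapped, since replicates 2 and 3 at 10 h lay within the 5 h range, while the footprint groups were far apart. TE of KIF14 changed by 2.91 ± 0.43 (SE; edgeR adjusted p = 5.93e-05).

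KIF20B (ENSG00000138182), which acts in the last stage of cytokinesis, had RNA of 52.6, 34.7, 43.2 and 35.4 CPM at 5 h and 225, 69.2, 117 and 142 CPM at 10 h. Footprints of KIF20B were at 13.4, 16.7, 10.4 and 10.5 CPM and then at 183, 207, 180 and 176 CPM. Replicate 1 was the highest of the RNA libraries at 10 h, and the groups did not overlap in either assay. The TE change was 2.10 ± 0.39 (SE; edgeR adjusted p = 0.00233). The midbody kinase CIT (ENSG00000122966) had RNA of 6.78, 14.5, 14.8 and 13.5 CPM at 5 h and 33.9, 40.8, 32.7 and 25.3 CPM at 10 h, with footprints of 4.35, 3.97, 3.8 and 5.07 CPM and then 56.5, 70.1, 54.5 and 48.3 CPM. In both assays CIT was separated between the times. Its TE change was 2.37 ± 0.34 (SE; edgeR adjusted p = 3.07e-05).

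BUB1B (ENSG00000156970) encodes BubR1, which holds back anaphase until chromosomes are attached, and its RNA stood at 28.8, 20.3, 10.2 and 26.1 CPM at 5 h and at 126, 95.7, 120 and 103 CPM at 10 h. Its footprints were at 6.59, 5.79, 2.39 and 3.55 CPM and then at 126, 136, 129 and 109 CPM. The 10 h footprint level matched that of the RNA, whereas at 5 h it lay below it in every replicate. The TE change was 2.37 ± 0.32 (SE; edgeR adjusted p = 1.47e-05). Cyclin B2, CCNB2 (ENSG00000157456), a partner of CDK1, had RNA of 17, 13.5, 15.9 and 14.6 CPM and then 54.4, 37.9, 34.3 and 33.4 CPM, and footprints of 5.67, 5.63, 3.24 and 4.94 CPM and then 48, 51.2, 46.2 and 47.2 CPM. No 5 h library reached a 10 h library, and TE changed by 1.88 ± 0.32 (SE; edgeR adjusted p = 0.000588).

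CENPI (ENSG00000102384), of the constitutive centromere complex, was at 22, 15.4, 21.6 and 26.1 CPM in RNA at 5 h and at 153, 80.6, 122 and 105 CPM at 10 h. Its footprints stood at 6.32, 4.47, 4.36 and 4.56 CPM and then at 83.4, 96.5, 88.8 and 80.6 CPM. Both assays were separated, and TE changed by 1.70 ± 0.29 (SE; edgeR adjusted p = 0.000436). SKA3 (ENSG00000165480), which joins kinetochores to microtubules, fell short of the level set for naming and was chosen after its values were seen, because its TE change of 3.77 ± 0.43 (SE; edgeR adjusted p = 1.41e-06) was the largest called. Its RNA was at 6.78, 12.5, 10.2 and 15.6 CPM and then at 42.1, 23.7, 18.7 and 20.8 CPM, and its footprints at 1.45, 1.82, 1.27 and 0.76 CPM and then at 40.4, 45.9, 39.4 and 36.8 CPM. The 5 h values of SKA3 rest on 41 RNA reads and 37 footprints in all.

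The condensin I subunit NCAPG (ENSG00000109805) differed from these genes in its RNA, which was high at both times. NCAPG RNA stood at 968, 517, 776 and 514 CPM at 5 h and at 908, 466, 1160 and 636 CPM at 10 h, and footprints at 55.2, 59.2, 48 and 68.7 CPM and then at 247, 297, 233 and 242 CPM. The RNA groups overlapped almost wholly, and the footprint groups were separated. The RNA change was 0.19 ± 0.30 (SE; edgeR adjusted p = 0.734) and the TE change 1.95 ± 0.39 (SE; edgeR adjusted p = 0.00803). The RefSeq span of NCAPG is overlapped by that of LCORL, and since it is not given whether the counting used strand, reads of the 2 genes cannot be told apart here. Another protein-coding gene overlaps 11 of the 57 called genes, among them KIF15 (TMEM42), FANCB (GLRA2), BUB1B (BUB1B-PAK6), PLCE1 (NOC3L) and PIGW (MYO19).

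**Figure D2:**
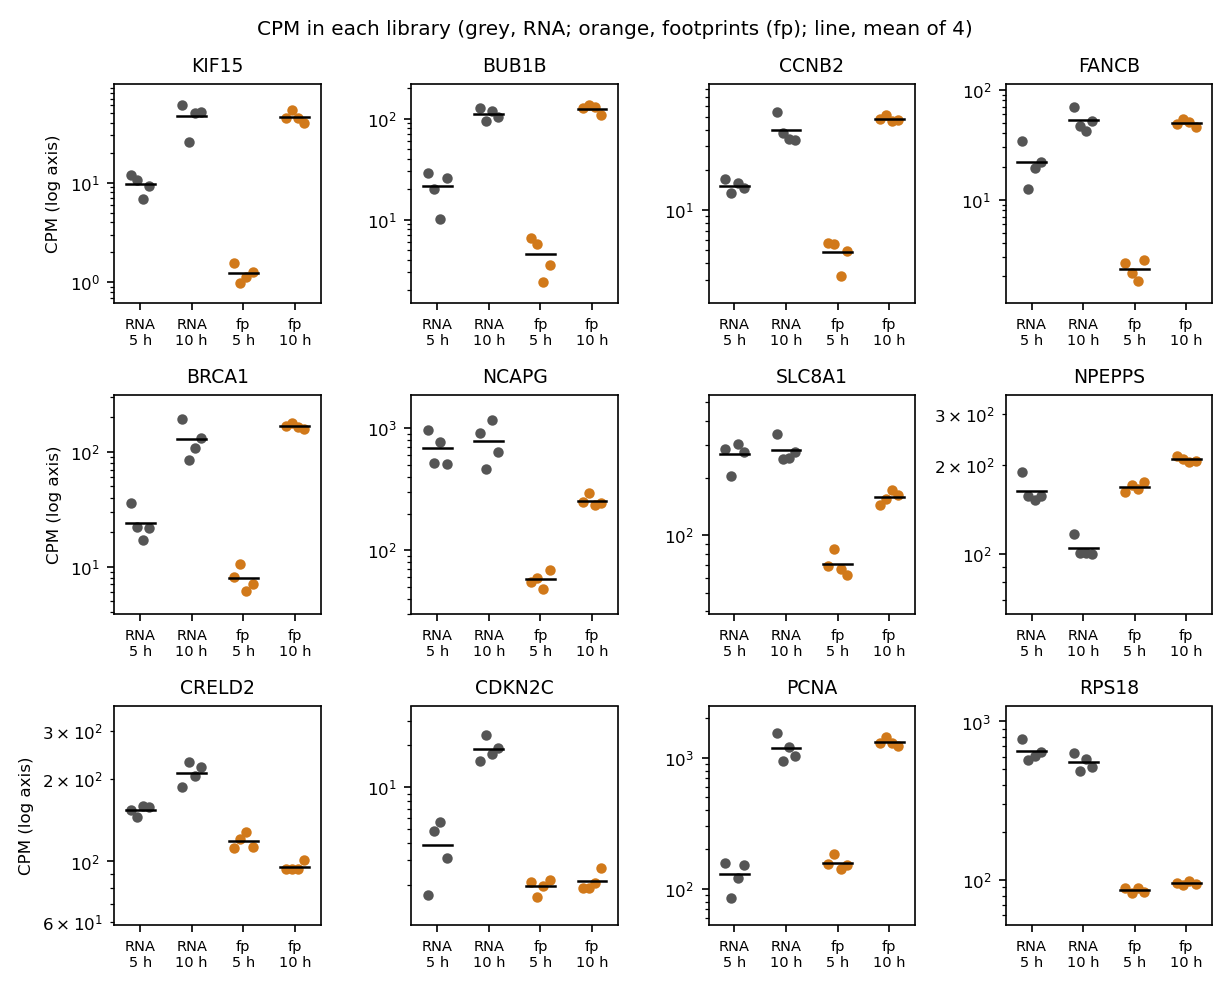
CPM in each library (y axis, log scale, own range in each panel) for 12 genes, with RNA in grey, footprints in orange, 5 h and 10 h side by side and a line at the mean of the 4 replicates. In KIF15, BUB1B, CCNB2, FANCB and BRCA1 footprints moved from below the RNA to its level, in CRELD2 and CDKN2C the RNA rose without a rise in footprints, and in PCNA both rose together.

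Of the named rises, 6 are known for parts in DNA repair, a grouping made after their values were seen. FANCB (ENSG00000181544), of the Fanconi anaemia core complex that acts on DNA crosslinks, had RNA of 33.9, 12.5, 19.3 and 21.9 CPM at 5 h and 69.8, 46.4, 42.1 and 52.4 CPM at 10 h. Its footprints were at 2.64, 2.15, 1.83 and 2.79 CPM and then at 48.5, 54.2, 50.4 and 46.2 CPM. The times were separated in both assays, by a narrow margin in RNA. The TE change of 3.0 ± 0.38 (SE; edgeR adjusted p = 3.92e-06) was the largest among genes at the set level. NEIL3 (ENSG00000109674), a DNA glycosylase, was at 10.2, 11.6, 18.2 and 16.7 CPM and then at 83.1, 57.8, 40.5 and 57.8 CPM in RNA, and at 2.24, 1.32, 1.13 and 1.65 CPM and then at 48.6, 47.7, 52.7 and 45.4 CPM in footprints. Its 10 h footprints were at the RNA level, and its TE changed by 2.81 ± 0.36 (SE; edgeR adjusted p = 4.02e-06).

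POLQ (ENSG00000051341), the polymerase of end joining by microhomology, had RNA of 17, 17.4, 15.9 and 10.4 CPM at 5 h and 71.8, 56.9, 71.7 and 70.5 CPM at 10 h. Its footprints, at 0.659, 1.49, 0.704 and 1.01 CPM and then at 23.9, 26, 21.1 and 21.2 CPM, stayed below the RNA at both times. POLQ was separated in both assays with a TE change of 2.40 ± 0.34 (SE; edgeR adjusted p = 2.02e-05). DNA2 (ENSG00000138346), a helicase and nuclease that trims DNA ends and replication flaps, stood at 52.6, 31.8, 42 and 59.4 CPM in RNA and then at 187, 95.7, 162 and 152 CPM. The footprints of DNA2 were at 6.72, 6.78, 7.04 and 4.94 CPM and then at 89.7, 95.7, 87.9 and 84.4 CPM. Neither assay overlapped between the times, and TE changed by 2.12 ± 0.25 (SE; edgeR adjusted p = 2.43e-06).

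BRCA1 (ENSG00000012048), a homologous recombination factor and an E2F target, had RNA of 35.6, 22.2, 17 and 21.9 CPM at 5 h and 194, 84.3, 108 and 132 CPM at 10 h. Its footprints were at 8.17, 10.6, 6.19 and 7.09 CPM and then at 168, 179, 164 and 157 CPM. Separation held in both assays, with replicate 1 the highest RNA library at each time, and the TE change was 1.90 ± 0.35 (SE; edgeR adjusted p = 0.00202). ZGRF1 (ENSG00000138658), a helicase of the repair of blocked forks, was at 23.7, 5.79, 17 and 19.8 CPM and then at 115, 42.6, 65.5 and 83.1 CPM in RNA, and at 2.11, 2.65, 1.69 and 2.15 CPM and then at 43.8, 49, 42.1 and 47.7 CPM in footprints. ZGRF1 had a TE change of 2.10 ± 0.49 (SE; edgeR adjusted p = 0.0277), and the call was lost in 7 of 30 alternatives. In 4 of these 1 library was left out, RNA at 5 h replicate 1, 3 or 4 or footprints at 5 h replicate 3. The edgeR adjusted p was then 0.112, 0.12, 0.138 and 0.0645.

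Smaller rises were called in genes of replication, nucleotide supply and the nucleolus, named here as list members or after their values were seen. POLA1 (ENSG00000101868), the catalytic subunit of DNA polymerase alpha, had RNA of 49.2, 32.8, 55.7 and 51.1 CPM and then 209, 141, 143 and 183 CPM, and footprints of 22.7, 18.4, 18.9 and 20.5 CPM and then 151, 152, 145 and 147 CPM. POLA1 was separated in both assays, with a TE change of 1.02 ± 0.18 (SE; edgeR adjusted p = 0.000962). DUT (ENSG00000128951), which keeps uracil out of DNA, went from 168, 128, 135 and 178 CPM to 250, 193, 218 and 215 CPM in RNA and from 83.7, 79.3, 81.5 and 83.5 CPM to 219, 241, 224 and 211 CPM in footprints. Its TE changed by 0.92 ± 0.15 (SE; edgeR adjusted p = 0.000397). FBL (ENSG00000105202) encodes fibrillarin, the methyltransferase of ribosomal RNA, and its RNA overlapped between the times at 219, 296, 203 and 212 CPM and then 266, 270, 262 and 167 CPM. FBL footprints rose from 138, 123, 142 and 133 CPM to 247, 251, 281 and 245 CPM, and TE by 0.90 ± 0.17 (SE; edgeR adjusted p = 0.00205).

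Some of the genes that rose are not placed here with division, replication or DNA repair. Of these, 3, named after their values were seen, show other mixtures of RNA and footprint change. NPEPPS (ENSG00000141279), a cytosolic aminopeptidase, fell in RNA from 190, 157, 153 and 157 CPM to 117, 101, 101 and 100 CPM, while its footprints rose from 162, 172, 166 and 175 CPM to 216, 210, 206 and 207 CPM. The assays moved in opposite directions with no overlap in either, and TE changed by 0.95 ± 0.12 (SE; edgeR adjusted p = 6.32e-06). SLC8A1 (ENSG00000183023), a sodium and calcium exchanger, overlapped in RNA at 283, 205, 302 and 276 CPM and then 340, 252, 256 and 276 CPM. Its footprints were separated at 69.3, 84.7, 66.4 and 61.8 CPM and then 145, 156, 174 and 164 CPM, and TE changed by 1.10 ± 0.18 (SE; edgeR adjusted p = 0.000436). PLCE1 (ENSG00000138193), a phospholipase C, had overlapping RNA of 40.7, 40.5, 34.1 and 32.3 CPM and then 46.2, 38.9, 46.8 and 59.6 CPM, with footprints of 14.9, 13.4, 16.2 and 14.2 CPM and then 43.8, 55.4, 45.5 and 45.7 CPM. For PLCE1 TE changed by 1.30 ± 0.20 (SE; edgeR adjusted p = 0.000149).

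The other rises, called by the same edgeR test and named after their values were seen, include further genes of division. Among them were the centriole genes CEP128 (3.29), STIL (1.55), CEP78 (1.39) and CEP192 (0.94), where the number in brackets is the log2 TE change. Separase, ESPL1 (1.59), the spindle orientation gene GPSM2 (1.77), the mitotic kinase MASTL (1.6) and the kinetochore gene KNTC1 (1.40) also rose. So did the kinesin KIF22 (0.96), the condensin II subunit NCAPG2 (0.92), the helicase BRIP1 (1.47) and the histone methyltransferases EZH2 (1.44) and NSD2 (0.79). ESPL1, GPSM2, MASTL and NCAPG2 lost their call in 8, 12, 14 and 10 of 30 alternatives. KNTC1, KIF22, BRIP1, EZH2 and NSD2 lost theirs in 1, 2, 3, 0 and 1. Further rises not placed with division or repair included ZNF608 (2.21), KANSL1L (1.31), NOX4 (1.21) and PDE4D (1.12). ATF7IP (1.05), PHIP (0.95), TIA1 (0.92) and PSD3 (0.80) were others. ZNF608, KANSL1L, NOX4 and PDE4D lost their call in 0, 17, 18 and 6 of 30 alternatives. ATF7IP, PHIP, TIA1 and PSD3 lost theirs in 1, 6, 8 and 10. IGBP1 was the single gene of raised TE whose footprints fell, from 59.6, 56.8, 60.0 and 61.7 CPM to 48.6, 44.1, 48.8 and 42 CPM. RNA of IGBP1 fell from 171, 175, 202 and 179 CPM to 93.4, 85.3, 111 and 84.9 CPM. The call of IGBP1 was lost in 12 of 30 alternatives. Over the 57 called genes, the 5 h and 10 h libraries did not overlap in RNA in 41 and in footprints in 52, against 21.6% and 58.8% of all genes tested. These shares use the values by which the genes were called.

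TE fell in 5 genes, and in 4 of them RNA rose without a rise in footprints. PIGW (ENSG00000277161), an enzyme of GPI anchor synthesis, was at 18.7, 11.6, 18.2 and 17.7 CPM in RNA at 5 h and at 47.2, 43.6, 32.7 and 29.8 CPM at 10 h, and at 12.3, 12.2, 9.71 and 10.5 CPM and then at 12.6, 12.9, 13.3 and 10.1 CPM in footprints. The footprint groups overlapped and the RNA groups did not. Its TE change was -1.11 ± 0.24 (SE; edgeR adjusted p = 0.0134), and the call was lost in 6 of 30 alternatives. In 1 of these, without RNA replicate 2 of 5 h, the edgeR adjusted p was 0.0718. NFXL1 (ENSG00000170448), a zinc finger protein, had RNA of 10.2, 14.5, 14.8 and 17.7 CPM and then 27.7, 26.5, 20.3 and 32.5 CPM, with overlapping footprints of 33.5, 31.3, 31.5 and 31.5 CPM and then 34.5, 28.4, 31 and 28.3 CPM. NFXL1 had a TE change of -0.96 ± 0.24 (SE; edgeR adjusted p = 0.0423), and the call was lost in 23 of 30 alternatives, most of them the omission of 1 library.

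CRELD2 (ENSG00000184164), an endoplasmic reticulum protein of the unfolded protein response, moved in opposite directions in the assays. RNA of CRELD2 rose from 154, 146, 159 and 158 CPM to 188, 231, 206 and 222 CPM, and footprints fell from 112, 121, 128 and 113 CPM to 93.6, 93.9, 93.9 and 101 CPM. Neither assay overlapped between the times, and the TE change was -0.77 ± 0.15 (SE; edgeR adjusted p = 0.00263). PLAT (ENSG00000104368), tissue plasminogen activator, was the most abundant called gene, with overlapping RNA of 1430, 1340, 1300 and 1530 CPM and then 1050, 1330, 1390 and 1320 CPM. PLAT footprints fell from 2960, 3790, 3180 and 3120 CPM to 1980, 2040, 1890 and 2110 CPM, its TE changed by -0.56 ± 0.14 (SE; edgeR adjusted p = 0.0311), and 14 of 30 alternatives ended the call. CDKN2C (ENSG00000123080), an inhibitor of CDK4 and CDK6, lay below the set level and was chosen after its values were seen. Its RNA went from 1.7, 4.83, 5.68 and 3.13 CPM, 14 reads in all, to 15.4, 23.7, 17.2 and 19 CPM, while footprints overlapped at 2.11, 1.65, 1.97 and 2.15 CPM and then 1.9, 1.91, 2.05 and 2.65 CPM. The TE change of CDKN2C was -2.16 ± 0.47 (SE; edgeR adjusted p = 0.0102), and the call was lost in 4 of 30 alternatives. In 1 of these, without RNA replicate 4 of 5 h, the edgeR adjusted p was 0.0562.

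Most of the called genes that belong to a list are in those of the cell cycle. Of 35 tested G2/M genes TE rose in 5 and fell in none, where 0.595% of all genes tested rose, the 5 being BUB1B, KIF4A, CDC25B, CCNB2 and AURKA. Their median TE change was 0.913 log2 units against 0.0364 over all genes, 32 of the 35 were above 0, and 22 had an unadjusted p under 0.05 with a rise, where 8.72% of all genes had such a p in either direction. The median footprint and RNA changes of the list were 3.76 and 2.66. Footprints rose in 35 and RNA in 33, against 31% and 11% of all genes tested. CDC25B, the phosphatase that activates CDK1, had RNA of 8.48, 9.65, 7.95 and 4.17 CPM and then 15.4, 22.7, 14 and 10.8 CPM, and footprints of 8.04, 7.12, 6.48 and 6.21 CPM and then 55, 63.3, 56.5 and 56 CPM. CDC25B footprints thus passed from about the RNA level to above it (TE change 1.97 ± 0.41, SE; edgeR adjusted p = 0.00544). The count of called G2/M genes was 14 with DESeq2, 9 without RNA replicate 1 of 10 h and 2 without the libraries numbered 3.

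For 42 tested E2F targets of G1/S, RNA and footprints rose in every one, against 11% and 31% of all genes tested. The median changes were 3.12 and 3.37 log2 units. TE rose in 2, BRCA1 and POLA1, against 0.595% of all genes tested. The median TE change of the list was 0.166, with 24 of 42 above 0. PCNA, the replication clamp, stands for the genes without a TE call, with RNA of 159, 84.9, 122 and 153 CPM and then 1540, 953, 1200 and 1040 CPM. Its footprints were at 154, 186, 141 and 151 CPM and then at 1290, 1440, 1300 and 1240 CPM. The increase was of like size in both assays, and the TE change was -0.14 ± 0.21 (SE; edgeR adjusted p = 0.905). Of the 43 tested replication-dependent histone genes none was called by edgeR, 1 had an unadjusted p under 0.05, and the median TE change was 0.0109 with a median RNA change of 2.95 and a median footprint change of 2.94. The difference between the G2/M and the G1/S list was not tested.

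CDK1, the kinase of mitotic entry, is a G2/M gene without a call. Its RNA stood at 6.78, 5.79, 6.82 and 11.5 CPM at 5 h, 27 reads in all, and at 244, 74.9, 112 and 89.5 CPM at 10 h. Footprints of CDK1 were at 8.83, 6.29, 5.63 and 7.22 CPM and then at 149, 162, 153 and 142 CPM. The 10 h RNA libraries of CDK1 lay far apart with replicate 1 highest, and the TE change of 0.37 had an SE of 0.61 (edgeR adjusted p = 0.916).

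**Figure D3:**
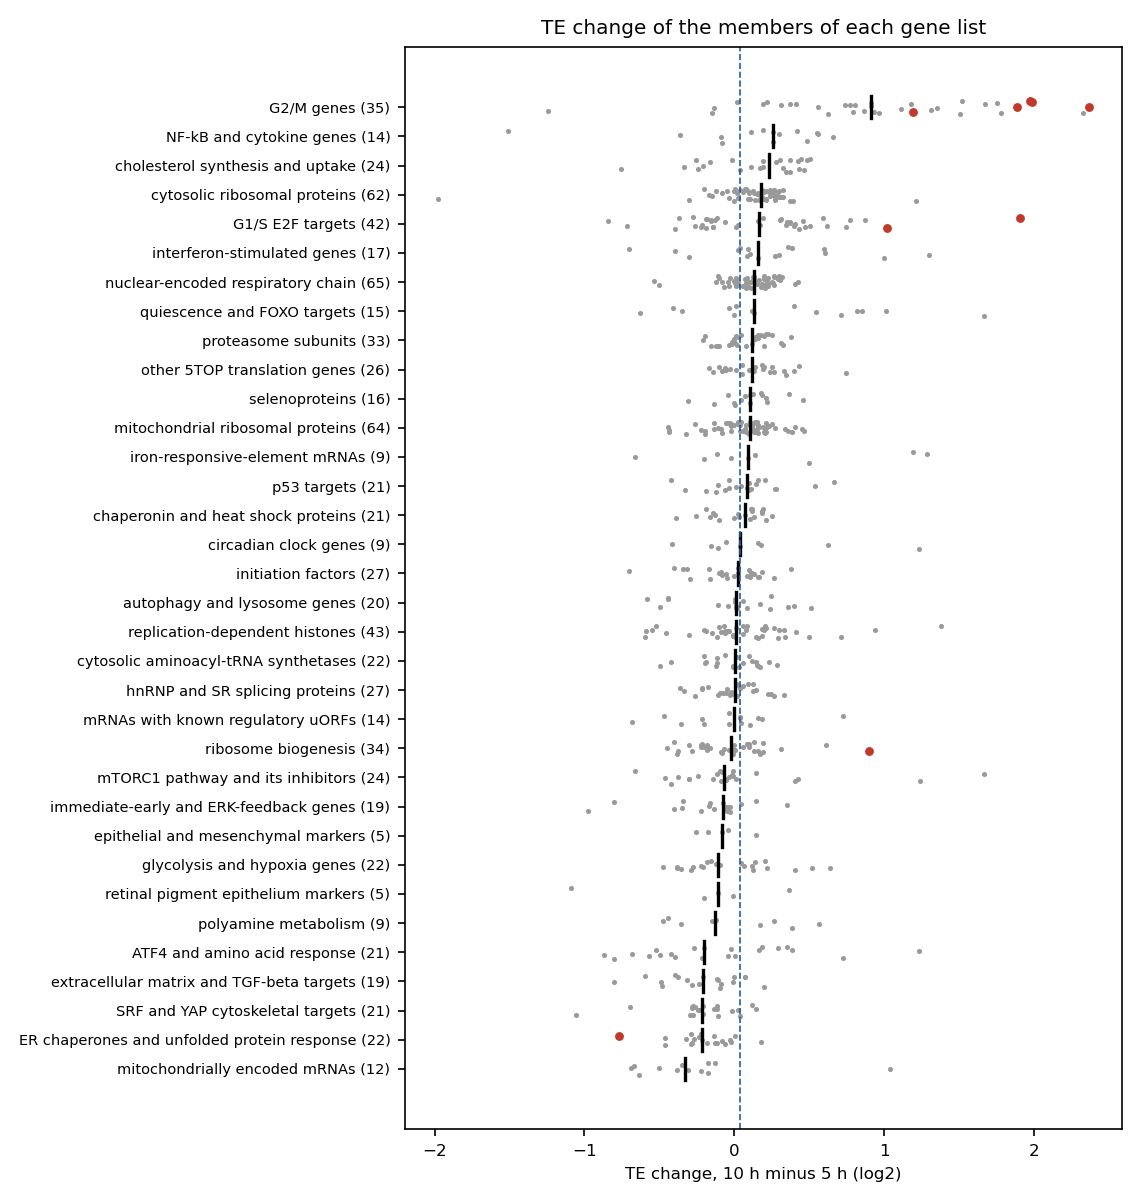
TE change from 5 h to 10 h (x axis, log2) of each tested member of the gene lists with 5 or more tested members (y axis, number tested in brackets), with called genes in red, the list median as a black bar and the median of all 8736 genes as a dashed line. The G2/M genes lie to the right with a median of 0.913, and the endoplasmic reticulum chaperones have a median of -0.216. The ribosomal proteins have a median of 0.176 and run from -1.98 (RPS16) to 1.21 (RPL21), neither of them called.

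The 2 lists of TOP mRNAs, ribosomal proteins and other translation genes, had no call in this step. The first 20 bases from the RefSeq start (GRCh38.p14) are shown for 4 of their members that have the leading pyrimidine run, which is in capitals, because the class is known by it. RPL32, also a TOP mRNA, has no such run at its 3 RefSeq starts.
RPS18: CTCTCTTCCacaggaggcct
RPS6: CTCTTTTCCgtggcgcctcg
EEF1A1: CTTTTTCgcaacgggtttgc
EEF2: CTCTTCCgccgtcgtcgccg
These starts lie at chr6:33272075-33272094 (plus strand), chr9:19380217-19380236 (minus), chr6:73521013-73521032 (minus) and chr19:3985444-3985463 (minus). A start with C followed by 4 pyrimidines was found in 38 of 49 ribosomal protein genes with an entry (77.6%), in 16 of 19 other TOP genes (84.2%) and in 7.82% of all tested genes with one. Of all 568 tested genes with such a start 5 had a raised TE (0.88%), against 0.598% of those without it, and it was in 1 of the 4 genes of lowered TE with an entry. None of 62 tested cytosolic ribosomal protein genes and none of 26 other TOP genes was called by edgeR, and 3 and 5 of them had an unadjusted p under 0.05 with a rise. The median TE changes were 0.176 and 0.118, with 51 of 62 and 18 of 26 above 0.

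RPS18 had RNA of 777, 574, 608 and 640 CPM at 5 h and 632, 485, 580 and 519 CPM at 10 h, and footprints of 89.2, 83.4, 89.5 and 84 CPM and then 96.3, 93.3, 99.3 and 94.4 CPM. RNA overlapped and the footprints did not, with a ratio of group means of 1.11, and the TE change was 0.37 ± 0.20 (SE; edgeR adjusted p = 0.610). EEF1A1, the elongation factor, had RNA of 2360, 1760, 2060 and 1960 CPM and then 1820, 1160, 1700 and 1480 CPM, with footprints of 150, 103, 125 and 117 CPM and then 91.7, 88.1, 87.3 and 90.7 CPM. Both levels were lower at 10 h by a like factor, with a TE change of -0.06 ± 0.21 (SE; edgeR adjusted p = 0.964). All 71 ribosomal protein genes of the table together took 6.0% ± 0.21 of RNA counts at 5 h and 5.46% ± 0.29 at 10 h, and 2.12% ± 0.04 and 2.23% ± 0.07 of footprints (SD, n = 4). In the step before, from 0 h to 5 h, the median TE change of the 62 tested genes was 2.55.

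In other lists of the translation machinery the values lay near the median of all genes. The 34 genes of ribosome biogenesis had 1 call, FBL, and a median TE change of -0.0257, while their median footprint and RNA changes were 0.314 and 0.349. Initiation factors (27 tested, median 0.0269), mitochondrial ribosomal proteins (64, median 0.103), aminoacyl-tRNA synthetases (22, median 0.00585) and the mTORC1 pathway with its inhibitors (24, median -0.069) had no call by edgeR, with 1, 1, 1 and 3 genes at an unadjusted p under 0.05. EIF4EBP2, a repressor of cap binding, was at -0.70, and SESN3, an inhibitor of mTORC1, at 1.67, both without passing the test (edgeR adjusted p of 0.561 and 0.704).

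Secretory and matrix genes leaned below 0. Of 22 endoplasmic reticulum chaperones and unfolded protein response genes 20 were below 0, with a median of -0.216 and 1 call, CRELD2. HSPA5, the chaperone BiP, and HYOU1 were at -0.46 each, and DNAJC3 at -0.32, none of them called by edgeR (adjusted p of 0.826, 0.392 and 0.487). The 19 genes of extracellular matrix and TGF-beta response had a median of -0.207 with 16 below 0, the 21 cytoskeletal targets of SRF and YAP one of -0.213 with 17 below 0, and the 21 genes of the ATF4 response one of -0.201 with 13 below 0. No member of these 3 lists was called by edgeR, and 3, 1 and 5 had an unadjusted p under 0.05. Of the 5 in the ATF4 list, 3 were falls and 2 were rises. The highest of that list was TRIB3 at 1.23. COL6A1, MYL9 and SLC7A5 were the lowest of their lists, at -0.81, -1.06 and -0.87. The 12 tested mRNAs of the mitochondrial genome had a median of -0.329 with 11 below 0 and no call. The 1 unadjusted p under 0.05 among them was that of a rise. MT-ND6, the one above 0, was at 1.04, and RNA of this genome is translated by mitochondrial ribosomes.

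The nuclear genes of the respiratory chain, the proteasome subunits and the genes of cholesterol synthesis had no call by edgeR. Of 65 respiratory chain genes 54 were above 0 (median 0.13, 3 at an unadjusted p under 0.05), and of 33 proteasome subunits 24 (median 0.118, 2), where 55.1% of all genes tested were above 0. PSMC3 and PSMD4, subunits of the proteasome's regulatory particle, were at 0.38 and 0.33. Among 24 genes of cholesterol synthesis the median was 0.234, with DHCR7, the last enzyme of the pathway, at -0.76 and MSMO1 at 0.46, and 5 had an unadjusted p under 0.05.

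Of the 14 tested NF-kB and cytokine genes RNA fell in 12 and footprints fell in 13 and rose in 1. Over all genes tested, RNA fell in 8.18%, and footprints fell in 30.7% and rose in 31%. The 14 genes had median changes of -1.79 in RNA and -1.52 in footprints, and a median TE change of 0.258 without a call. CXCL8, the chemokine interleukin-8, went from 1140, 1150, 1270 and 1280 CPM to 48.2, 36, 53 and 49.7 CPM in RNA, and from 287, 437, 431 and 457 CPM to 19.5, 18.5, 15.4 and 20.7 CPM in footprints. Its fall was of like size in the assays, with a TE change of 0.26 ± 0.23 (SE; edgeR adjusted p = 0.822). Of the 19 immediate-early and ERK-feedback genes RNA fell in 11, and footprints fell in 17 and rose in 1. They had medians of -0.798 in RNA, -0.909 in footprints and -0.0737 in TE, and FOSL1 was the lowest at -0.98 (edgeR adjusted p = 0.356). In these 2 lists 2 and 2 genes had an unadjusted p under 0.05.

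The remaining lists had no call by edgeR and 0 to 3 genes each at an unadjusted p under 0.05. Their median TE changes were 0.158 for interferon-stimulated genes, 0.128 for quiescence and FOXO targets, 0.107 for selenoproteins, 0.0887 for mRNAs with an iron-responsive element, 0.0837 for p53 targets and 0.0716 for chaperonin and heat shock genes. They were 0.037 for clock genes, 0.0123 for autophagy and lysosome genes, 0.0044 for hnRNP and SR proteins, -0.00209 for mRNAs with regulatory upstream reading frames, -0.108 for glycolysis and hypoxia genes and -0.126 for polyamine genes. ODC1, the first enzyme of polyamine synthesis, was at -0.44 ± 0.13 (SE; edgeR adjusted p = 0.118), with a footprint change of -0.42 and an RNA change of 0.03.

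A further list held 28 genes with well-known places in the cell cycle, growth and stress, and of the 27 tested none was called by edgeR, with 4 at an unadjusted p under 0.05. Cell cycle genes among them gave TE changes of -0.38 for CCND1, -0.22 for CCNE2, -0.37 for CDC6, -0.15 for CCNA2 and 0.56 for CCNB1, with RNA changes of 0.46, 2.58, 3.92, 4.52 and 1.54. H1-5 and H2BC11, histone genes, were at -0.09 and 0.18, and CDKN1A and MYC at -0.12 and -0.17. TOP mRNAs RPL32, EEF2 and PABPC1 were at 0.27, -0.05 and -0.10. ATF4, DDIT4 and TXNIP, of the stress and nutrient responses, were at 0.19, 1.24 and -0.04, and TFRC and HMGCS1, of iron and sterol uptake or synthesis, at 0.09 and 0.11. The housekeeping genes ACTB, GAPDH and VIM were at -0.29, 0.14 and -0.26.

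The rise between 5 h and 10 h can be set beside the steps around it. From 0 h to 5 h the test called 552 of 8736 genes (6.32%), 394 higher (4.51%) and 158 lower (1.81%), and from 10 h to 15 h it called none, with 536 at an unadjusted p under 0.05. The difference between the 5 h to 10 h change and the one before was called in 270 genes (3.09%). In 84 the change after 5 h was the more positive (0.962%), and in 186 the one before (2.13%). The difference from the step after was called in 19 (0.217%). Of the 52 risen genes 33 differed from the step before and 18 from the step after, all by a more positive change from 5 h to 10 h. The sign enters this difference, so a fall before 5 h could be larger in size than the rise, as in CIT below. Both differences contain the 5 h or the 10 h libraries by which the genes were called, so the counts are a description. KIF14 changed by -2.41 from 0 h to 5 h (edgeR adjusted p = 0.0002), by 2.91 in the next step and by -0.12 from 10 h to 15 h. BUB1B changed by -1.94 (edgeR adjusted p = 7.05e-05), 2.37 and 0.06, and CIT by -2.67 (edgeR adjusted p = 1.6e-07), 2.37 and 0.68. FANCB, by contrast, was at 0.17, 3.0 and -0.30 and DNA2 at 0.94, 2.12 and -0.01, so that these 2 had no called fall before the rise. Of the 52 genes, 13 had a called fall and 2 a called rise from 0 h to 5 h, against 1.81% and 4.51% of all genes tested. The 5 h libraries by which the 52 were called enter that step with the opposite sign, so these counts are a description too. None of the 52 had a called change after 10 h, as no gene tested had one. The plot of TE over the time course shows these courses.

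**Figure D4:**
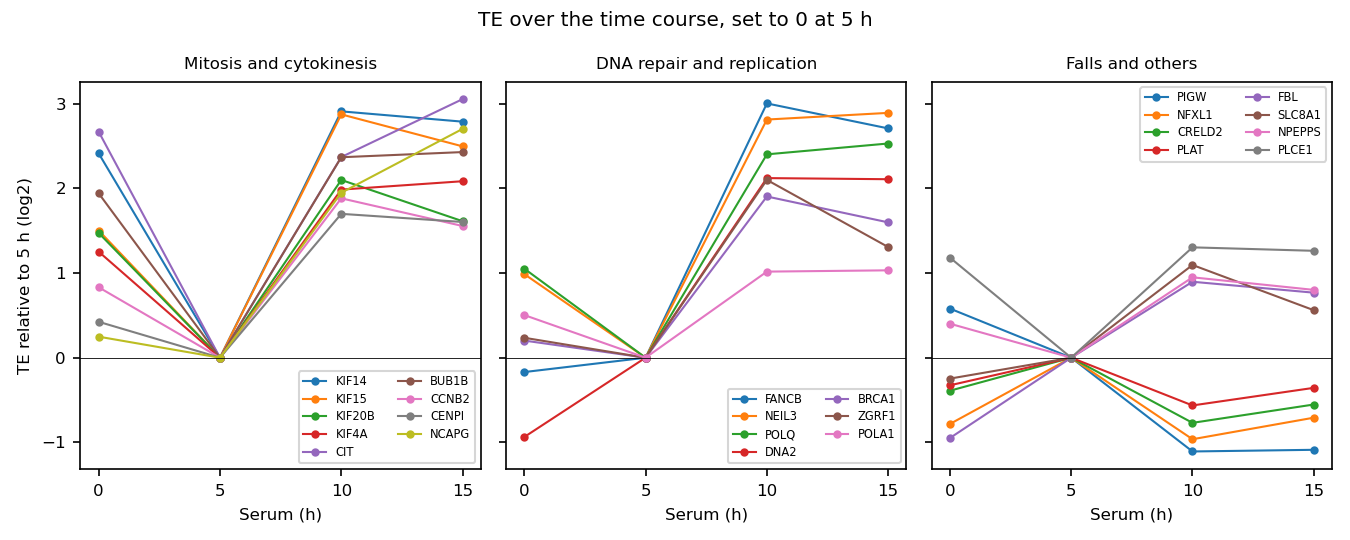
TE relative to 5 h (y axis, log2; 0 at 5 h by construction) at 0, 5, 10 and 15 h of serum (x axis) for named genes in 3 panels, each line a gene joined from the fitted step changes. The lines of the left and middle panels are at 1.02 to 3.0 at 10 h and above 0 at 15 h, and those of PIGW, NFXL1, CRELD2 and PLAT are below 0 at 10 h; the SE of the 5 h to 10 h change is 0.12 to 0.51 in these genes.

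The risen genes were long. Their median counted length was 3088.5 bases against 1347 for all genes tested, and 33 of the 57 called genes were among the 1746 genes of 2547 to 80721 bases, where 1.89% were called. In the other 4 length classes of like size 0.0571% to 0.516% were called. The median TE change did not follow counted length, being 0.0398, 0.0554, 0.0372, 0.0122 and 0.0218 from the shortest to the longest class, with median RNA counts per library of 38.8, 39.9, 39.1, 39.8 and 44.4. The counted lengths were multiples of 3 in 96.46% of genes, which is how lengths without untranslated bases would look, and they need not be the full coding length. By RefSeq span the median was 88.35 kb for the 52 genes, 34.08 kb for all genes tested and 29.77 kb for the G2/M list. In 5 classes from the shortest to the longest span the median TE change was 0.0145, 0.0221, 0.0267, 0.0459 and 0.0612. These classes held 0, 7, 6, 18 and 21 of the called rises. The relation of TE change to span was not tested. The SE of the TE change followed RNA depth. From the 1753 genes with the fewest RNA counts (1.375 to 15.5 per library) to the 1747 with the most (109.875 to 7748.38), 5 classes of like size had median SEs of 0.381, 0.28, 0.223, 0.186 and 0.162. The number of called genes did not follow it in the same way, with 5, 15, 12, 13 and 12.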

How the data were processed

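RNA and footprint libraries were prepared alike, with ribosomal RNA depletion and a small RNA library kit, per the labels' protocols. The authors deposited a table of raw read counts per gene, made with STAR 2.5.4a, featureCounts 1.5.1 and GRCh38 per the submitters' processing notes; the annotation, strand setting and handling of molecular identifiers are not given in the sources used here. Columns were matched to libraries by name. Counts were analysed with edgeR 4.0.16 in R 4.3.3: filterByExpr by time in each assay, TMM factors within each assay, 1 quasi-likelihood fit over all 32 libraries with an assay by time interaction, and Benjamini-Hochberg adjustment over 8736 genes at 0.05. RNA and footprints were also fitted separately. CPM are shares of a library's counts. The fit takes 1 dispersion per gene for both assays, although the common coefficient of variation was 0.185 in RNA and 0.0547 in footprints. On simulated data with 8736 genes, it recovered 19.4% of 1.5-fold, 52.2% of 2-fold and 92.4% of 4-fold TE changes. Of its 124 calls there, 15 were unchanged genes, a larger share than the 0.05 aimed at. The labels call the replicates biological; no 2 libraries of a group held identical values.

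The genes named are the 15 largest called rises and up to 15 falls with mean levels of at least 20 CPM in RNA and 10 CPM in footprints, a list of 28 genes, and up to 4 members of each gene list, called genes first. The members and the lists were chosen with earlier results of these data known. Alternatives were DESeq2 1.42.0, limma 3.58.1 (voom), other scalings and filters, the replicate number as a block, the 16 libraries alone and leaving out libraries. Symbols were found for 18905 of 19023 gene identifiers. Promoters, gene starts and spans are from RefSeq tables (GRCh38.p14).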

Additional observations from a re-analysis of the deposited data

Results flagged for a closer look

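In 13 of 128 groups of 4 libraries (32 genes, 4 groups each) 1 library lay far from the others, its gap to the nearest exceeding Dixon's critical value for 4 samples; chance gives about 1 in 20, and the groups of a library are not independent. RNA at 5 h had CIT at 6.78 CPM in replicate 1 (others 13.5, 14.5 and 14.8), NPEPPS at 190 in replicate 1 (others 153, 157 and 157) and PIGW at 11.6 in replicate 2 (others 17.7, 18.2 and 18.7). RNA at 10 h had POLQ at 56.9 CPM in replicate 2 (others 70.5, 71.7 and 71.8), FBL at 167 in replicate 4 (others 262, 266 and 270) and NPEPPS at 117 in replicate 1 (others 100, 101 and 101). Footprints at 5 h had CENPI at 6.32 CPM in replicate 1, DNA2 at 4.94 in replicate 4, NFXL1 at 33.5 in replicate 1 and CXCL8 at 287 in replicate 1. Footprints at 10 h had FBL at 281 CPM in replicate 3, PLCE1 at 55.4 in replicate 2 and CRELD2 at 101 in replicate 4. Of the called genes among these, PIGW and NFXL1 lost their call when the library in question was left out, and the others kept it.

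In 21 of the 32 genes the TE change from 5 h to 10 h differed from that of 0 h to 5 h by edgeR's test of the difference. The differences in log2 units were 5.32 for KIF14, 5.04 for CIT, 4.38 for KIF15, 4.31 for BUB1B, 4.22 for SKA3, 3.80 for NEIL3, 3.57 for KIF20B, 3.46 for POLQ and 3.24 for KIF4A. They were 2.83 for FANCB, 2.72 for CCNB2, 2.49 for PLCE1, 2.12 for CENPI, 1.52 for POLA1, 1.35 for NPEPPS and 1.11 for DUT. PLAT, CRELD2 and NFXL1 had differences of -0.89, -1.16 and -1.75. RPS18 and EEF1A1, with a difference of -3.21 and -3.35, had their TE rise before 5 h. These genes' edgeR adjusted p ran from 4.08e-08 for RPS18 to 0.0292 for FANCB.

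In 16 genes the change differed from that of 10 h to 15 h, by 3.67 log2 units for SKA3, 3.30 for FANCB, 3.25 for KIF15, 3.03 for KIF14, 2.89 for ZGRF1, 2.74 for NEIL3, 2.59 for KIF20B and 2.31 for BUB1B. The difference was 2.27 for POLQ, 2.21 for CCNB2, 2.21 for BRCA1, 2.14 for DNA2, 1.89 for KIF4A, 1.80 for CENPI, 1.63 for SLC8A1 and 1.10 for NPEPPS. The edgeR adjusted p ran from 0.000321 for SKA3 to 0.0432 for KIF20B. Most of these genes were named for their change from 5 h to 10 h, and the differences use the same libraries.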

How the results depend on the processing

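All 57 called genes kept their direction under all 30 alternatives, and 20 kept their call under every one. Against 52 rises and 5 falls, DESeq2 called 94 and 21, limma voom with a variance weight per assay 42 and 5, and 5 CPM in at least 4 libraries called 8 falls and the 16 libraries alone 2. The TE change of 5 h to 10 h exceeded that of the step before in 84 genes and that after in 19 (146 and 33 with DESeq2), and was below that after in none (4 with DESeq2). DESeq2 called 14 G2/M genes against 5. Leaving out libraries gave 22 to 69 rises, 0 to 14 falls, 2 to 9 G2/M rises and 1 to 2 G1/S rises. It gave 23 to 86 genes above and 104 to 216 below the step before (84 and 186 with all), and 0 to 23 above and 0 to 1 below the step after. The 22 rises were without all libraries numbered 3, and the step after had 0 without those numbered 3 or those numbered 4. The cause of these shifts was not tested.

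Replicate numbers share no stated source. Deviations of same-numbered libraries of 5 h and 10 h correlated at 0.34, 0.77, -0.0033 and 0.17 in RNA and at 0.24, 0.28, 0.24 and 0.029 in footprints, with 2 of 4 best for their own number in each. With the replicate number as a block within each assay there were 106 rises, 34 falls, 10 G2/M rises, 205 and 342 genes above and below the step before and 54 and 3 above and below the step after. A block shared across assays gave 8 falls, and a block in the RNA fit 1109 genes with lower RNA against 718.

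Without a call, these genes changed sign in some of the alternatives. TE changes over all settings ran from -0.0165 to 0.438 for ATF4, -0.545 to 0.307 for CCNA2 and -0.604 to 0.136 for CCNE2. They ran from -0.275 to 0.0897 for CDKN1A and -0.203 to 0.0553 for EEF1A1. The ranges were -0.26 to 0.163 for EEF2, -0.317 to 0.058 for H1-5, -0.00562 to 0.318 for HMGCS1, -0.278 to 0.0731 for PABPC1, -0.239 to 0.0234 for PCNA, -0.0443 to 0.212 for TFRC and -0.202 to 0.202 for TXNIP.

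Smaller TE changes can be missed: 52.2% of the simulated 2-fold changes were recovered, and a gene without a call is not shown to be unchanged.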
